A study of Mus musculus with 10 samples.

Results

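Airway mucus is made by goblet cells, and the genes described here are 10 genes that goblet cells use to become mucous cells and to make, package and release mucus: Spdef, Foxa3, Muc5ac, Muc5b, Agr2, Clca1, Fcgbp, Tff2, Itln1 and Slc26a4. They were picked by gene symbol from a table of lung RNA-seq, and all 10 were in it, out of 24394 gene symbols. Each had a single transcript row, so that the level of the transcript and the sum for the gene were the same. The level is given as FPKM (mapped fragments divided by the length of the transcript and by the depth of the library), which can be compared between genes because it is per length.

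The libraries came from the lungs of 10 female BALB/c mice, 8 weeks old at purchase. Mice of the Saline group (n = 3) were the controls and received saline only. OVA mice (n = 3) were sensitized to ovalbumin, an egg protein, with alum on days 0 and 7, and were challenged through the nose for 4 days from day 12, which causes an asthma-like inflammation. Herb mice (n = 4) had the same ovalbumin protocol and were given an ethanol extract of Descurainia sophia seeds, called DSE in the study, at 200 mg/kg by mouth from day 9 to day 15. Whether the sequenced OVA mice received the oral vehicle is not given in the sources used here. Each library was made from whole lung, so that more goblet cells and more RNA per goblet cell cannot be told apart.

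In the airways of a healthy mouse, goblet cells are rare, and most secretory cells are club cells. After allergen challenge, type 2 cytokines such as IL-13 act through the IL-4 receptor and STAT6 on these cells, and the transcription factors Spdef and Foxa3 turn on a mucous programme in which FOXA2 is a known antagonist. Mucin polymers are folded in the endoplasmic reticulum with the help of Agr2, joined in granules by other secreted proteins, and expand after release in a bicarbonate-rich fluid to which the anion exchanger of Slc26a4 contributes.

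The estimated depth was 14700000 to 29200000 mapped fragments per library. A share of fragments was estimated for protein-coding RefSeq transcripts with a gene symbol and a known length. It was 32.7 to 33.02% in Saline, 11.8 to 14.7% in OVA and 19.1 to 25.6% in Herb. Rows without a symbol, 31605 of 66548, did not enter this share. It was computed from the same FPKM, so it is no separate measure of the lower FPKM of most genes in OVA. The cause was not tested. The median difference over the 11205 genes tested was -0.75 in OVA vs. Saline, -0.27 in Herb vs. Saline and 0.48 in Herb vs. OVA on the log2(FPKM + 1) scale. When libraries were scaled to the same 75th percentile these medians became 0.0017, 0.031 and 0.031. The housekeeping gene Gapdh was listed at 0 in 9 of 10 libraries, so a value of exactly 0 need not mean that no RNA was there, and it is written here as "listed at 0". The surfactant gene Sftpc and the club cell gene Scgb1a1 were high in all groups, with mean levels of 2870 and 17540 FPKM in Saline, 310.3 and 3929 FPKM in OVA and 925 and 9132 FPKM in Herb.

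In GRCm38.p6, the assembly that mm10 stands for, several of the genes lie beside relatives. Muc5ac (chr7:141788958-141819227) and Muc5b (chr7:141839059-141873089) are neighbours on the plus strand, 19838 bases apart, with the gut mucin gene Muc2 on the other side of Muc5ac. Tff2 (chr17:31141062-31144282) lies between Tff3 and Tff1, Agr2 (chr12:35992925-36004081) lies next to Agr3, and Clca1 (chr3:145004537-145032776) lies between Clca4a and Clca2. The others are Spdef (chr17:27714446-27731003), Foxa3 (chr7:19013283-19023539), Fcgbp (chr7:28071236-28120864), Itln1 (chr1:171518123-171535325) and Slc26a4 (chr12:31519814-31560055). Promoter sequences in RefSeq were found for 6 of the 10 genes, namely Itln1, Foxa3, Fcgbp, Slc26a4, Agr2 and Spdef. The bases upstream of the gene are shown for Fcgbp, chr7:28070986-28071235 on the plus strand, and for Itln1, chr1:171535326-171535544 on the minus strand, because these 2 genes passed the test in OVA vs. Saline. Capitals would mark a motif.
Fcgbp promoter: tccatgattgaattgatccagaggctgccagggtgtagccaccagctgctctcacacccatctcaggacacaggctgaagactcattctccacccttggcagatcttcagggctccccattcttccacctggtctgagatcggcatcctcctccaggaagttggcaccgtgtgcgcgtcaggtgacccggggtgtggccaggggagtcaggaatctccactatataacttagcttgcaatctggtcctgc
Itln1 promoter: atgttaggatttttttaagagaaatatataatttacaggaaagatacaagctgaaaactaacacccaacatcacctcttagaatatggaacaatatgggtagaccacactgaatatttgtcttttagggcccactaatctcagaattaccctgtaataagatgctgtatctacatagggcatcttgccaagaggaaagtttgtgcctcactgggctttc
In all 6 promoters the full window of 300 bases was searched on both strands. It ran from 250 bases before to 50 bases after the start that RefSeq gives. This start lies inside the gene for Spdef, Itln1 and Slc26a4. The motifs were the STAT6 motif (TTC and GAA with any 4 bases between them), TGTTTAC and TGTTTGC (FOXA) and CCGGAT (SPDEF). No match was found in any of the 6, which says only that these letters are not in these windows. Over all 32851 promoters of this length, the motifs were present in 6.95%, 3.65%, 5.07% and 6.04%.

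The transcription factors of the set were low in Saline and higher in single ovalbumin libraries. Spdef, an ETS factor that drives goblet cell differentiation, was at 0.182, 0.122 and 0.218 FPKM in Saline, 0.658, 0.792 and 4.61 FPKM in OVA and 0.576, 0.50, 1.57 and 2.91 FPKM in Herb. All 7 ovalbumin libraries were above all Saline libraries, and OVA and Herb overlapped. The difference of Spdef in OVA vs. Saline was 1.12 ± 0.50 (SE) on the log2(FPKM + 1) scale and did not pass the test (limma with Benjamini-Hochberg adjustment over all genes tested, adjusted p = 0.0779), and with scaling to the 75th percentile it was 1.54 and passed (adjusted p = 0.0483). Foxa3, a forkhead factor that acts with Spdef, had the lowest group mean of the set in OVA and in Herb. It was at 0.132, 0.106 and 1.88 FPKM in OVA and 0.401, 0.116, 0.679 and 1.26 FPKM in Herb. In Saline it was at most 0.0715 FPKM. Its mean over all libraries was under the minimum of 1 FPKM required for the test, and in a fit without this minimum it differed by 0.55 ± 0.37 (SE) in OVA vs. Saline (adjusted p = 0.309).

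Of the gel-forming mucins, Muc5b was measured in every library and Muc5ac in the ovalbumin libraries only. Muc5ac, the mucin induced in allergic airways, was listed at 0 in all 3 Saline libraries. It was at 0.179, 0.27 and 18.7 FPKM in OVA and at 1.58, 0.203, 1.01 and 18.2 FPKM in Herb. Only OVA replicate 3 and Herb replicate 4 stood above 2 FPKM, and all 7 ovalbumin libraries were above the controls. The difference in OVA vs. Saline was 1.63 ± 1.21 (SE), with a 95% confidence interval from -1.11 to 4.37, and did not pass the test (adjusted p = 0.271).

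Muc5b, the mucin made in healthy airways, was at 0.146, 0.677 and 2.60 FPKM in Saline, 1.01, 1.72 and 12.6 FPKM in OVA and 2.54, 2.91, 10.1 and 7.94 FPKM in Herb. The groups overlapped, because Saline replicate 3 was above OVA replicates 1 and 2. The differences were 1.14 ± 0.76 (SE) in OVA vs. Saline (adjusted p = 0.221) and 1.68 ± 0.71 (SE) in Herb vs. Saline (adjusted p = 0.111). The latter passed in 2 of 21 alternatives, 1 of them without OVA replicate 3 (adjusted p = 0.0462). OVA libraries enter this comparison only through the spread shared by all groups, and the difference stayed at 1.68. Within a library, the level of Muc5ac was 0.177, 0.157 and 1.49 times that of Muc5b in OVA and 0.621, 0.0699, 0.0998 and 2.30 times in Herb. Muc5b was thus the more abundant mucin in all but the same pair of libraries, OVA replicate 3 and Herb replicate 4.

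**Figure D1:**
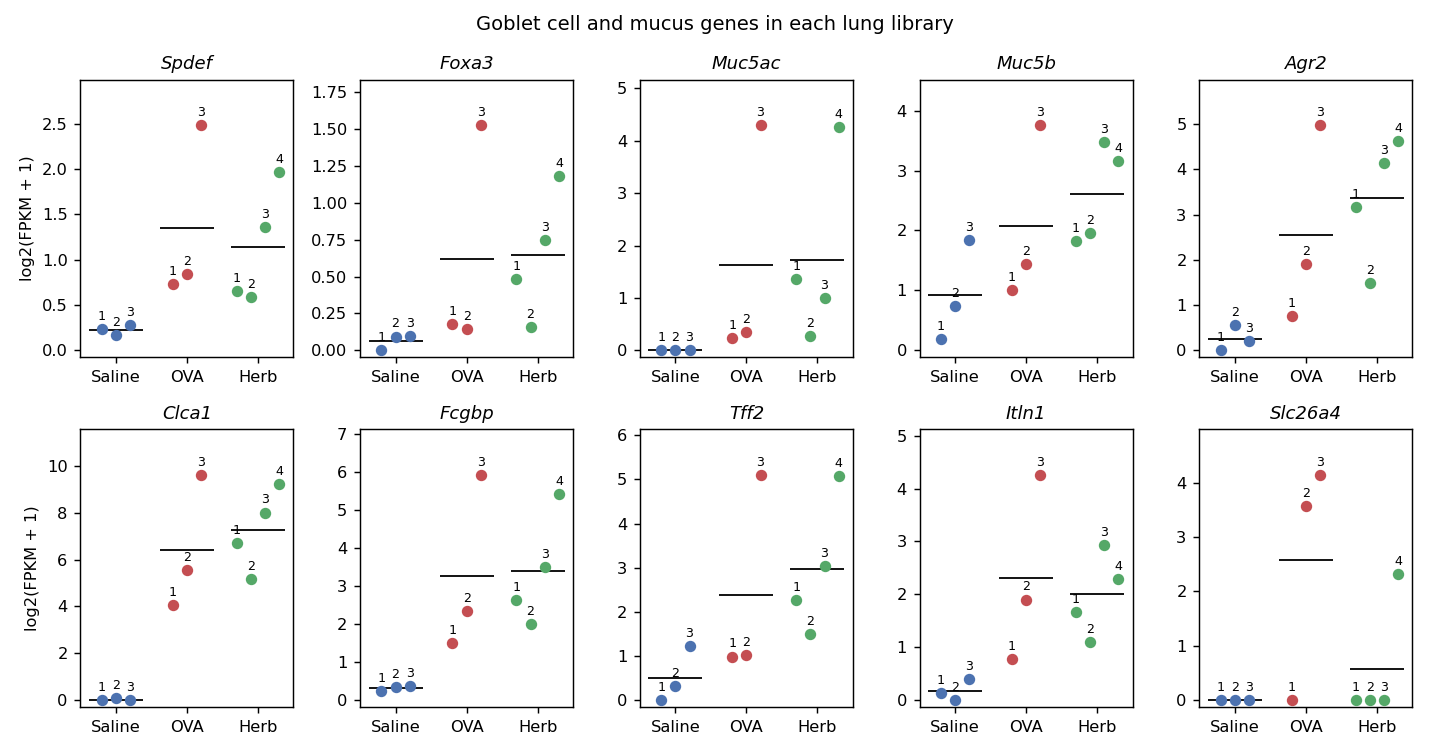
Level of each of the 10 genes on the log2(FPKM + 1) scale in the 3 Saline, 3 OVA and 4 Herb libraries, where each point is 1 mouse with its replicate number and the line is the group mean. OVA replicate 3 is the highest point of every panel, and most Herb points lie within the range of the OVA points.

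Clca1 had the largest difference of the set. It encodes a secreted metalloprotease of the mucus and is a classic marker of goblet cells in allergic mouse airways. It was listed at 0 in Saline replicates 1 and 3 and at 0.0544 FPKM in replicate 2. In OVA it was at 15.8, 46.3 and 788 FPKM, and in Herb at 104, 34.5, 256 and 596 FPKM. The lowest ovalbumin library was thus far above the highest control, and OVA and Herb overlapped over most of their ranges. The difference was 6.39 ± 1.37 (SE) in OVA vs. Saline (95% confidence interval 3.29 to 9.50, adjusted p = 0.00305), or 7.14 above the median of all genes. In Herb vs. Saline it was 7.25 ± 1.29 (SE, adjusted p = 0.00968). Both calls held in all 21 alternatives, with adjusted p from 0.000487 to 0.0165 and from 0.00726 to 0.0419. Clca1 made up 65.5 to 82.6% of the summed FPKM of the 10 genes in the ovalbumin libraries, and was the most abundant of them in each of these 7 libraries.

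Fcgbp followed Clca1 at a lower level. It encodes a large protein with mucin-like domains that is secreted with mucins. Its values were 0.188, 0.267 and 0.292 FPKM in Saline, 1.81, 4.07 and 59.7 FPKM in OVA and 5.22, 3.01, 10.3 and 41.4 FPKM in Herb. No ovalbumin library overlapped with Saline, and the level of Clca1 was 8.74 to 24.9 times that of Fcgbp within these libraries. The difference was 2.93 ± 1.14 (SE) in OVA vs. Saline (adjusted p = 0.0486) and 3.06 ± 1.06 (SE) in Herb vs. Saline (adjusted p = 0.0614). The call in OVA vs. Saline was lost without any of the Saline replicates (adjusted p = 0.0991, 0.0951 and 0.0946), without OVA replicates 2 or 3 (0.0527 and 0.141), or without Herb replicates 1 or 3 (0.0593 and 0.0651). It was also lost without the minimum level (0.0821), with a minimum of 0.1 FPKM (0.0593), with single rows (0.0562) and with only the 2 groups compared (0.0595). In Herb vs. Saline, Fcgbp passed in 6 of the 21 alternatives. Among them were those without OVA replicate 1 (adjusted p = 0.0489), OVA replicate 3 (0.0212) or Herb replicate 2 (0.0484).

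Itln1 encodes intelectin-1, a lectin secreted into mucus. It was at 0.097 and 0.313 FPKM in Saline replicates 1 and 3 and listed at 0 in replicate 2. The OVA libraries had 0.719, 2.74 and 18.2 FPKM, and the Herb libraries had 2.17, 1.15, 6.61 and 3.90 FPKM. Every ovalbumin library was above every control, and it was, with Muc5b, a gene for which Herb replicate 4 was below Herb replicate 3. Itln1 rose by 2.14 ± 0.78 (SE) in OVA vs. Saline (adjusted p = 0.0383), and the difference in Herb vs. Saline was 1.82 ± 0.73 (SE, adjusted p = 0.0951). The first call was lost without any of the Saline replicates (adjusted p = 0.0822, 0.0899 and 0.0685), without OVA replicates 2 or 3 (0.0551 and 0.0897), or without Herb replicates 1 or 4 (0.0501 and 0.0506). It was also lost without the minimum level (0.0669) and with only the 2 groups compared (0.0684). In Herb vs. Saline, Itln1 passed in 4 of the 21 alternatives, among them the fit without OVA replicate 3 (adjusted p = 0.0233).

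Agr2, a disulfide isomerase needed to fold mucins, was listed at 0 in Saline replicate 1 and was at 0.479 and 0.162 FPKM in the others. It was at 0.684, 2.78 and 30.7 FPKM in OVA and at 8.05, 1.79, 16.7 and 23.9 FPKM in Herb. In all, 3 of the 4 Herb libraries were above 2 of the 3 OVA libraries, and none overlapped with Saline. Agr2 passed the test in Herb vs. Saline, with 3.10 ± 1.00 (SE, adjusted p = 0.0488), whereas the difference in OVA vs. Saline was 2.29 ± 1.07 (SE, adjusted p = 0.0904). The Herb call was lost without any of the Saline replicates (adjusted p = 0.123, 0.107 and 0.116), without OVA replicate 2 (0.0601), or without Herb replicates 1, 3 or 4 (0.081, 0.113 and 0.111). It was also lost with scaling to the 75th percentile (0.0778), to the sum of coding transcripts (0.0565) and by quantiles (0.108), with single rows (0.0605), with a minimum of 0.1 FPKM (0.0605), without a minimum (0.082) and with the replicate number as a block (0.0885). Without OVA replicate 1, Agr2 also passed in OVA vs. Saline, with 3.19 (adjusted p = 0.0326).

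Tff2, a trefoil peptide released with mucus, was listed at 0 in Saline replicate 1 and was at 0.242 and 1.33 FPKM in the others. It was at 0.984, 1.04 and 33.6 FPKM in OVA and at 3.80, 1.81, 7.17 and 32.5 FPKM in Herb. OVA replicates 1 and 2 were below Saline replicate 3, so the OVA and Saline groups overlapped, and the Herb and Saline groups did not. The difference was 1.87 ± 1.19 (SE) in OVA vs. Saline (adjusted p = 0.20) and 2.45 ± 1.11 (SE) in Herb vs. Saline (adjusted p = 0.13). The latter passed in 1 of the 21 alternatives, the fit without OVA replicate 3 (adjusted p = 0.0469).

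Slc26a4, which encodes pendrin, an exchanger of chloride, bicarbonate and iodide, had a pattern of its own. It was listed at 0 in all Saline libraries, in OVA replicate 1 and in Herb replicates 1, 2 and 3. It was at 10.8 and 16.7 FPKM in OVA replicates 2 and 3 and at 4.01 FPKM in Herb replicate 4. The difference was 2.57 ± 1.02 (SE) in OVA vs. Saline (adjusted p = 0.0531), 0.58 ± 0.96 (SE) in Herb vs. Saline (adjusted p = 0.682) and -1.99 ± 0.96 (SE) in Herb vs. OVA (adjusted p = 0.117). Without OVA replicate 1, the library at 0, Slc26a4 was called in OVA vs. Saline (3.85, adjusted p = 0.00196) and lower in Herb vs. OVA (-3.27, adjusted p = 0.0239). Without Herb replicate 4 it was called in OVA vs. Saline at the same difference (adjusted p = 0.0389).

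Taking the set by comparison, 9 of the 10 genes were tested, since Foxa3 was under the minimum level. Of these 9, 3 passed the test as higher in OVA vs. Saline (Clca1, Fcgbp and Itln1), 0 as lower, and 6 were higher in every OVA library than in every Saline library (7 of 10 with Foxa3). Foxa3 was separated by few fragments, with an estimated 2.9 at most in Saline, and at least 4.9 in OVA and 3.5 in Herb. Over all 11205 genes tested, 3.28% were called higher, 57.9% were called lower, and 4.68% were higher in OVA without overlap. The means of all 10 genes were higher in OVA than in Saline. Muc5b was the 1 member whose Saline mean reached 1 FPKM, so the others entered the test through their ovalbumin libraries. For these others the minimum level favoured calls as higher, and they could hardly be called lower than Saline. The 0 called lower, here and in Herb vs. Saline, is thus no result about them. In Herb vs. Saline, 2 of the 9 were called higher (Clca1 and Agr2) and 7 were higher without overlap (8 of 10 with Foxa3), against 3.32% and 6.94% of all genes, and 0 were called lower, against 22.7%. This comparison shares the Saline libraries with the first one.

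In Herb vs. OVA, 0 of the 9 tested genes passed the test in either direction (limma, and 0 had an unadjusted p under 0.05). Of all genes, 44% were called higher and 0.446% were called lower. These shares depended on the scaling. With the 75th percentile, 80 of 11309 genes were called, 41 higher and 39 lower, and 0 of the set. The mean FPKM was lower in Herb than in OVA for 8 of the genes, and the median FPKM was higher in Herb for 9. On the log2 scale the difference was above 0 for 7 genes and below 0 for 3. The 95% confidence intervals all included 0 and were wide. For Clca1 the difference was 0.85, with an interval from -2.05 to 3.76. For Muc5ac it was 0.098 (-2.46 to 2.66), for Muc5b 0.53 (-1.08 to 2.15), for Agr2 0.81 (-1.45 to 3.07) and for Fcgbp 0.13 (-2.27 to 2.54). The direction of Muc5ac, Foxa3 and Fcgbp turned with scaling to the 75th percentile, where they were -0.17, -0.16 and -0.39.

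**Figure D2:**
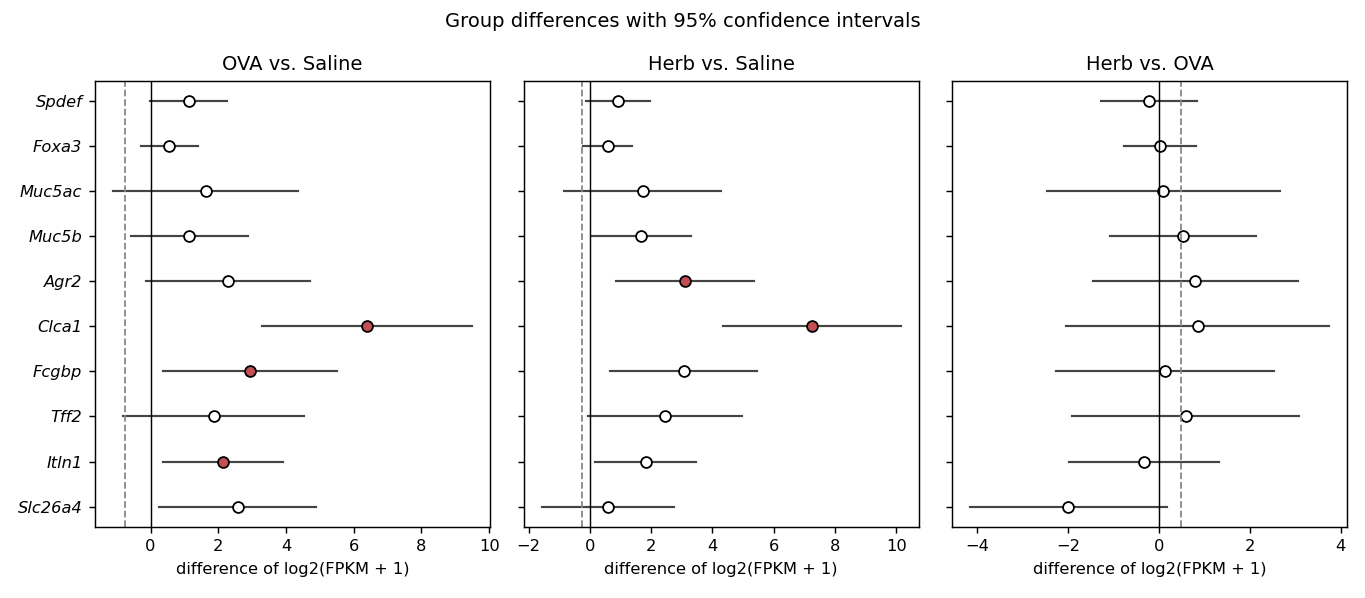
Difference of group means of log2(FPKM + 1) for each gene, with its 95% confidence interval, in the 3 comparisons. Filled points passed the test (adjusted p under 0.05), and the dashed line is the median of all 11205 genes tested. Clca1 lies at 6.39 in OVA vs. Saline and at 7.25 in Herb vs. Saline, and all intervals in Herb vs. OVA cross 0.

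The spread lay between mice of the same group. OVA replicate 3 was the highest of the 7 ovalbumin libraries for all 10 genes, while it was the highest for 6.02% of all genes tested. OVA replicate 1 was the lowest or tied for lowest for 8 of the 10, and it was the lowest for 50.9% of all genes. The count for the 10 depended on the scaling. With the percentile scaling used above, OVA replicate 1 stayed lowest or tied for Clca1, Muc5b, Agr2 and Slc26a4. Herb replicate 2 was then lowest for Muc5ac, Spdef, Foxa3, Fcgbp and Itln1, and OVA replicate 2 for Tff2. OVA replicate 3 stayed the highest for all 10. Summed over the 10 genes, the level was 22.01, 70.6 and 985 FPKM in OVA and 129, 46, 310 and 732 FPKM in Herb. The highest OVA library was 44.7 times the lowest, and the highest Herb library was 15.9 times the lowest. For the 9 genes above 0 in every OVA library this ratio ran from 7 for Spdef to 105 for Muc5ac, and it has no value for Slc26a4, which was listed at 0 in 1 of them. All 7 sums were above those of Saline, which were 0.612, 1.91 and 4.98 FPKM.

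**Figure D3:**
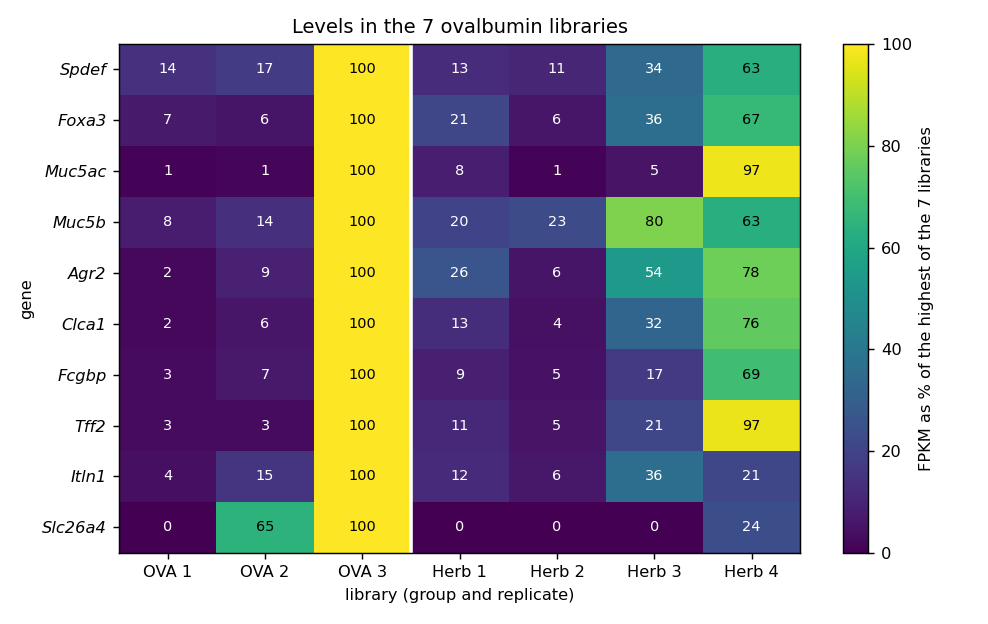
Level of each gene in the 3 OVA and 4 Herb libraries as a percentage of its highest value among these 7. OVA replicate 3 holds 100% in every row, Herb replicate 4 is next for most genes, and OVA replicate 1 is near the bottom.

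The genes moved together from mouse to mouse. Over the 7 ovalbumin libraries, Clca1 correlated with 8 of the other 9 genes (two-sided exact permutation test over 5040 pairings, Benjamini-Hochberg adjustment over 9 relations, log2 scale). The closest was Agr2, with r = 0.992 (adjusted p = 0.000893 by the exact test, from the smallest p the pairings allow, 0.000198) and rho = 1.0 (adjusted p = 0.00179, exact test). Fcgbp had r = 0.965 and rho = 1.0, Tff2 had r = 0.962 and rho = 0.964, and Foxa3 had r = 0.951 and rho = 0.857. Muc5b had r = 0.931 and rho = 0.857, Spdef had r = 0.898 and rho = 0.821, Muc5ac had r = 0.897 and rho = 0.964, and Itln1 had r = 0.871 and rho = 0.929. The adjusted exact p for r in these was at most 0.00759 and that for rho at most 0.0384. Leaving out OVA replicates 1 and 3, the libraries farthest from the median of Clca1, left r between 0.748 (Itln1) and 0.99 (Foxa3) for these 8 genes. Many genes outside the set followed Clca1 as closely. Among 11198 genes ranked by r over the 7 libraries, Agr2 was at rank 3, Fcgbp at 28 and Tff2 at 33. Muc5b was at rank 85, Spdef at 150, Muc5ac at 152 and Itln1 at 225, and Foxa3 was not ranked.

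Slc26a4 was the exception, with r = 0.499 (exact permutation p = 0.248) and rho = 0.591 (exact permutation p = 0.171), and r = 0.0392 without the same 2 libraries. OVA replicate 2 had a low level of Clca1 and a high level of Slc26a4, and Herb replicate 3 had the reverse. With 3 OVA and 4 Herb mice, no r was computed within a group. Over all 36 pairs among the 9 genes other than Slc26a4, r ranged from 0.722 to 0.992 with a median of 0.921.

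**Figure D4:**
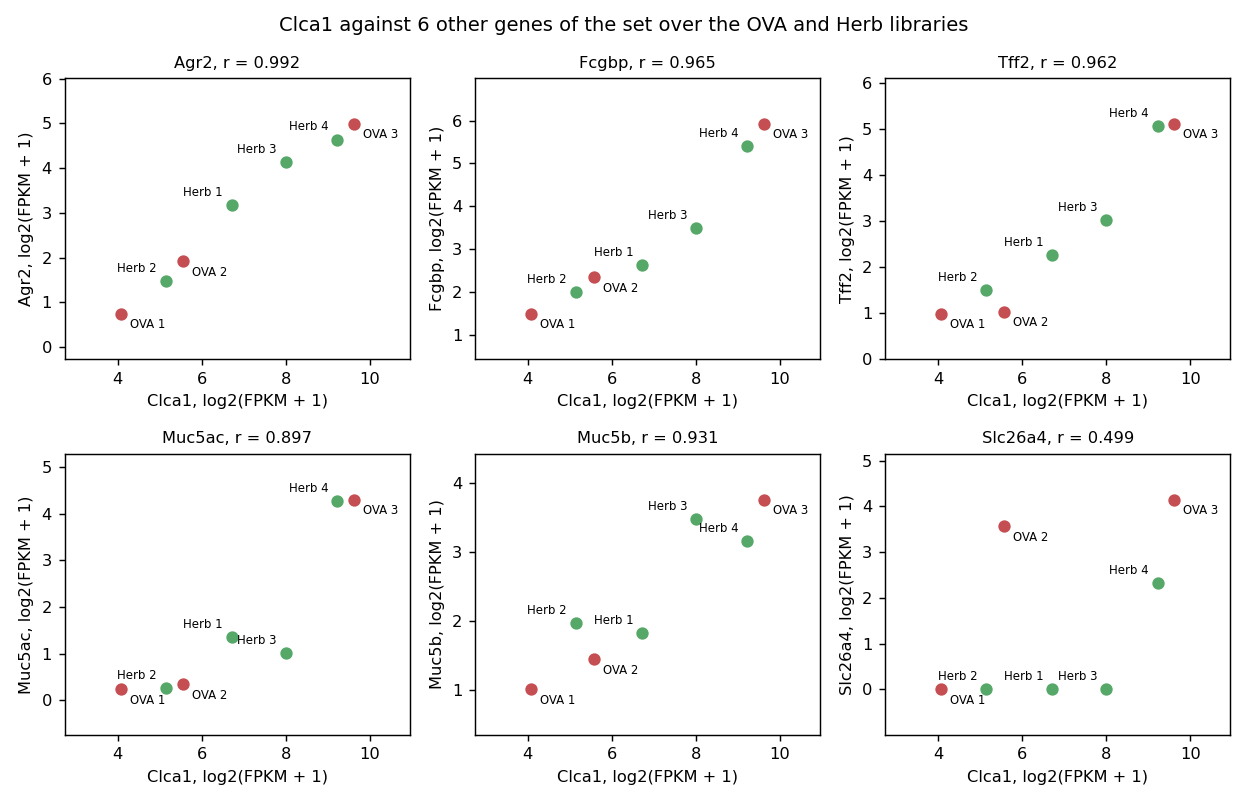
Level of Agr2, Fcgbp, Tff2, Muc5ac, Muc5b and Slc26a4 against Clca1 on the log2(FPKM + 1) scale, where each point is 1 of the 7 ovalbumin libraries. Agr2 and Fcgbp keep the order of Clca1 in all 7 libraries, whereas Slc26a4 lies at 0 in 4 of them.

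Summed levels of markers of other airway cells differed between the same libraries, over a smaller range. The summed FPKM of 12 ciliated cell markers was 44, 62.4 and 125 in OVA replicates 1 to 3, that of 9 epithelial markers was 46.3, 63.4 and 99.02, and that of 12 club cell markers was 2923, 4606 and 5978. The order of the 3 OVA libraries was thus the one seen for the mucus genes, with a ratio of highest to lowest of 2.83, 2.14 and 2.04 in place of 44.7. In Herb the ratios were 1.34, 1.27 and 1.54, against 15.9, and the order was not shared by all lists. Herb replicate 2 was the lowest for the mucus genes (46 FPKM) and the highest for the club cell markers (13050 FPKM). Herb replicate 3 was the lowest for the epithelial markers (98.3 FPKM) and the club cell markers (8461 FPKM). Herb replicate 4 was the highest for the mucus genes (732 FPKM), the ciliated markers (116.7 FPKM) and the epithelial markers (124.7 FPKM). The part of these markers in the spread of the mucus genes was not tested. The club cell sum was mostly Scgb1a1, at 2471, 4151 and 5164 FPKM in OVA replicates 1 to 3. Single club cell markers went both ways across these replicates. Bpifb1 rose far more (1.74, 6.04 and 97.6 FPKM), while Cyp2f2 fell (136.1, 135.1 and 85.9 FPKM). Compared with Saline, the epithelial markers were lower in OVA in sum (151 to 211 against 46.3 to 99.02 FPKM), and so were the club cell markers (13970 to 24340 against 2923 to 5978 FPKM), with 0 of 12 club cell genes called higher and 5 lower, against 57.9% of all genes called lower. After scaling to the 75th percentile 2 of the 12 were lower, against 2344 of 11309 genes, and the median difference of the list was 0.028. The large airway list was led by Lyz1, and its basal cell gene Krt5 was listed at 0 in all libraries.

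**Figure D5:**
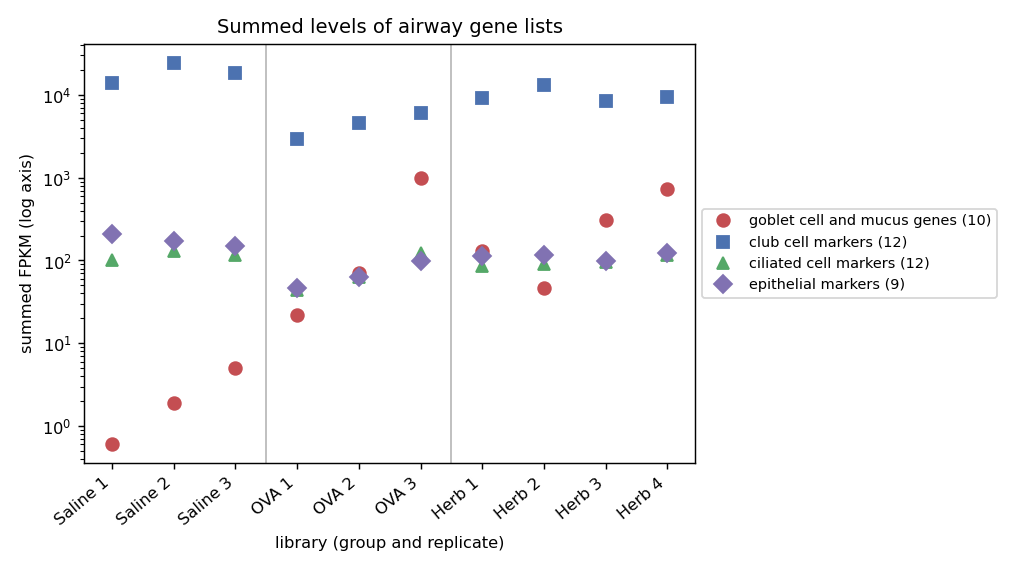
Summed FPKM (log axis) of the 10 goblet cell and mucus genes and of 3 marker lists in each of the 10 libraries. The mucus genes span 0.612 to 985 FPKM and are lowest in Saline, whereas the club cell, ciliated and epithelial lists are lowest in OVA replicate 1.

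Of the genes outside the set, those with the pattern most like Clca1 over the 7 ovalbumin libraries, among 11198 genes, were Bpifb1 (r = 0.999), Esrra (r = 0.998), Scgb3a1 (r = 0.989), Slc44a4 (r = 0.988) and Cbr3 (r = 0.988), and Agr2 stood between them at rank 3. Bpifb1, a secreted protein of airway mucous cells, was at 1.74, 6.04 and 97.6 FPKM in OVA and 13.7, 5.05, 35.01 and 66.03 FPKM in Herb. Scgb3a1, a secretoglobin of the large airways, was at 12.4, 21.04 and 220.4 FPKM in OVA, 35.9, 13.8, 84.5 and 205.5 FPKM in Herb, and 7.99 to 50.6 FPKM in Saline. Esrra, a nuclear receptor, ran only from 3.78 to 5.74 FPKM in these libraries, so that a like pattern did not need a like range. Over all 10 libraries the closest were Esrra (r = 0.998), Ccno (r = 0.991), Adam8 (r = 0.983), Chil4 (r = 0.981) and Spag5 (r = 0.981). Chil4, a chitinase-like protein of allergic mouse lung, was listed at 0 in 2 Saline libraries and reached 215 FPKM in OVA replicate 3.

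In the lists of the wider mucus machinery, counts of genes called lower in OVA vs. Saline are to be read against the 57.9% of all genes called lower. After scaling to the 75th percentile, 2360 of 11309 genes were called higher and 2344 lower in this comparison. Counts after scaling are to be read against these. Of 21 genes for mucin glycosylation and folding, 12 were tested in OVA vs. Saline, and 0 were called higher and 5 lower, with a median difference of -0.54 against -0.75 over all genes. The largest decreases were those of C1galt1c1, the chaperone of the core 1 O-glycan enzyme (-2.12), Xbp1, a transcription factor of the unfolded protein response (-1.35), and St3gal1, a sialyltransferase (-0.93). With scaling to the 75th percentile, 2 of the 12 were higher and 1 was lower, namely C1galt1c1 (-1.34), while Xbp1 (-0.44) and St3gal1 (-0.11) did not pass. Of 14 genes for granule exocytosis, 11 were tested, and 0 were called higher and 6 lower (median -0.96), led by Marcks (-2.70), Vamp8 (-1.96) and Dnajc5 (-1.83). After scaling, 1 was higher and 4 were lower.

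Among 21 other regulators of airway epithelial fate, 20 were tested in OVA vs. Saline, 2 were called higher and 10 lower. The higher genes were Foxj1, the master regulator of ciliated cells (1.26, adjusted p = 0.017), and Jag2, a Notch ligand (0.74, adjusted p = 0.00353), and the largest decreases were those of Egfr (-1.52), Klf4 (-1.38) and Notch1 (-1.19). After scaling, 5 of the 20 were higher and 1 was lower, and Egfr was at -0.68 (adjusted p = 0.0474), Klf4 at -0.50 (adjusted p = 0.328) and Notch1 at -0.26 (adjusted p = 0.432). Of the 12 ciliated cell markers, Foxj1 was the 1 called higher, and 2 were called lower, Dynlrb2 (-1.31) and Tppp3 (-1.18). These counts were 1 and 0 after scaling. The summed FPKM of the ciliated cell markers was 44 to 124.5 in OVA, against 100.2 to 130.3 in Saline. Foxa2, the antagonist of the mucous programme, fell by 0.89 (adjusted p = 0.000183), near the median of all genes, and after scaling its difference was -0.027. Of the 7 tested genes for type 2 inducers and their receptors, 0 were higher and 5 lower (median -1.35), led by Il33 (-1.82), Jak1 (-1.69) and Il13ra1 (-1.35). After scaling 1 was lower, namely Jak1 (-0.81), while Il33 (-0.96) and Il13ra1 (-0.50) did not pass. Il13 itself was listed at 0 in 5 of 10 libraries and was at most 0.198 FPKM. Of the 10 other mucins, 2 were tested, of which Muc1, a membrane mucin, was called lower by the test (-1.41, adjusted p = 0.000711) and Muc4 did not pass. After scaling Muc1 was at -0.43 and did not pass (adjusted p = 0.117).

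The relatives of the set were mostly low. Of 19 paralogs in the table, 7 were tested, and 0 were called higher and 4 lower in OVA vs. Saline (2 and 0 after scaling). Clca4a and Clca4b were listed at 0 in all libraries, and Clca2, next to Clca1, was at most 0.0935 FPKM. Of 6 tested genes for ion transport at the airway surface, 5 were lower, among them Scnn1g (-2.36), Aqp5 (-2.06) and Scnn1a (-1.96), the first and last being subunits of the epithelial sodium channel, and after scaling 1 was higher and 2 were lower (Scnn1g and Scnn1a). In Herb vs. OVA, 0 genes of these lists were called lower, and 4 of 12, 4 of 11, 6 of 20, 3 of 7, 3 of 7 and 2 of 6 were called higher in the order given (glycosylation, exocytosis, regulators, type 2 genes, paralogs, ion transport), against 44% of all genes. After scaling none of these was called.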

How the data were processed

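The authors deposited 1 table of FPKM values with 1 row for each transcript and 1 column for each library. They trimmed reads with cutadapt 1.10, aligned them to mm10 with Hisat2, assembled transcripts with StringTie 1.3.3b and read FPKM with ballgown (submitters' processing notes and methods of the study). The library kit is named differently in these sources, so that strand use is not settled. FPKM share out the fragments of a library, and no scaling between libraries is stated.

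Here rows were summed per symbol, and groups were taken from the labels. Genes with a mean of at least 1 FPKM were tested with limma 3.58.1 (R 4.3.3) on log2(FPKM + 1). The 10 libraries entered a single fit with an intensity trend and Benjamini-Hochberg adjustment. A call is an adjusted p under 0.05, and such differences understate changes of low genes. The fit was tested on simulated data. Depth was estimated from values under 0.1 FPKM and transcript lengths, and limits precision at low levels. All 10 genes are named, with at most 3 called genes per direction of each other list and the 5 genes most like Clca1. Genes and lists were chosen with earlier results of these data known. Promoters are from RefSeq (GRCm38.p6). Alternatives are given in the closing section.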

Additional observations from a re-analysis of the deposited data

Results flagged for a closer look

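In the Herb group of 4, the value of Slc26a4 in replicate 4 (4.01 FPKM) stood apart from the other 3, which were listed at 0. Its gap to the nearest library divided by the range of the group was 1.0, above Dixon's 95% limit for 4 samples. With the other 3 listed at 0, any value above 0 gives this ratio, so it says nothing of how far replicate 4 lies from them. It was the 1 gene of 10 so tested that passed this limit, and chance alone passes about 1 in 20 groups (groups of 3 were not tested). The cause was not tested.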

How the results depend on the processing

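The call of Clca1 in both comparisons with Saline was kept under all 21 alternatives. The number of mucus genes called higher in OVA vs. Saline was 3, and became 5 with a pseudocount of 0.1, 1 without the minimum level, 1 with only the 2 groups compared, and 1 to 5 when single libraries were left out. In Herb vs. Saline it was 2, and became 1 with each of the 3 scalings (75th percentile, sum of coding transcripts, quantile), without the minimum, with a minimum of 0.1 or with single rows, 4 with a pseudocount of 0.1, 4 with only the 2 groups, 4 without OVA replicates 1 and 3 (chosen after seeing the data), and 1 to 6 when single libraries were left out. In Herb vs. OVA, 0 to 1 genes were called lower when single libraries were left out.

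The replicate block changed the count to 6 in OVA vs. Saline. Same-numbered libraries correlated by -0.00869 to 0.0953 in their deviations from the group means, and 2 of 10 libraries correlated best with their own number, so the numbers do not pair the mice. Herb replicate 4 has no same-numbered partner and adds nothing to a blocked difference. With the block, 1342 genes were called in Herb vs. Saline in place of 2921.

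Over all genes, calls in OVA vs. Saline were 6853 (5.37% higher, and 50.17% with 75th percentile scaling) and 4004 with quantile normalization. In Herb vs. OVA they were 4982 (99% higher, and 51.25% with this scaling), against 80, 640 and 157 with the 3 scalings, 65 without OVA replicates 1 and 3, and 3225 to 5069 when single libraries were left out. In Herb vs. Saline they were 2921 (12.74% higher, and 54.15% with this scaling), against 1640 and 841 with 75th percentile and quantile scaling, and 897 to 3224 when single libraries were left out.

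Directions turned in Herb vs. OVA, where no value passed the test in any of these. With the 3 scalings Muc5ac was at -0.174, -0.262 and -0.401, Foxa3 at -0.159, -0.227 and -0.181, and Fcgbp at -0.395, -0.582 and -0.512, and Muc5b was at -0.0798 with the sum of coding transcripts. With the block, Muc5ac was at -0.749, Foxa3 at -0.153, Tff2 at -0.114 and Fcgbp at -0.542. Without OVA replicates 1 and 3, Spdef was at 0.301 and Itln1 at 0.0953. When single libraries were left out, the differences ran from -0.32 to 2.46 for Clca1, -0.0928 to 2.02 for Agr2, -0.749 to 1.44 for Muc5ac, -0.21 to 0.48 for Foxa3, -0.114 to 1.96 for Tff2, -0.749 to 1.47 for Fcgbp, -0.522 to 0.357 for Spdef and -1.09 to 0.656 for Itln1, and the highest value of each came without OVA replicate 3. The cause of these shifts was not tested. The number of correlations with Clca1 that passed by r, 8, was unchanged by 75th percentile scaling and by a pseudocount of 0.1. By rho, Spdef did not pass with 75th percentile scaling (rho = 0.75, adjusted p = 0.0746, exact permutation test), and its r without the 2 farthest libraries was 0.55 there in place of 0.923.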

Other observations

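Some low genes outside the set, singled out after their values were seen, had the same high libraries. Ern2, a stress sensor of the endoplasmic reticulum found in mucous cells, was listed at 0 in all Saline libraries and was at 0.313, 0.481 and 2.71 FPKM in OVA and 0.208, 0.0444, 0.929 and 1.71 FPKM in Herb. Gcnt3, an enzyme that branches mucin O-glycans, was listed at 0 in all Saline libraries and was at 0.0633, 0.0252 and 0.566 FPKM in OVA and 0.0269, 0.0158, 0.109 and 0.599 FPKM in Herb. Tff1, the neighbour of Tff2, was above 0 in 3 libraries, with 2.61 FPKM in OVA replicate 3 and 0.585 and 3.30 FPKM in Herb replicates 3 and 4. Their means were under 1 FPKM and they were not tested. Not all low genes of the same lists had these high libraries. Tff3, the other neighbour of Tff2, was listed at 0 in all 7 ovalbumin libraries. B3gnt6, from the glycosylation list, was lowest of its group in OVA replicate 3 (0.172 FPKM) and in Herb replicate 4 (0.0837 FPKM).

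Reg3g, an antibacterial lectin of the epithelium, was at 1.07, 0.475 and 69.2 FPKM in OVA and 4.11, 0.30, 7.91 and 64.3 FPKM in Herb, against 0.475 to 2.39 FPKM in Saline. OVA replicate 3 and Herb replicate 4 were the high libraries here, as for Muc5ac and Tff2. Ltf, the gene of lactoferrin, passed the test in OVA vs. Saline with 2.02 ± 0.76 (SE, limma, adjusted p = 0.043), and was at 1.80, 3.37 and 19.7 FPKM in OVA and 7.83, 4.30, 10.1 and 26.3 FPKM in Herb.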
